A study of Mus musculus with 4 samples.

Results

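The autophagy machinery and its cargo receptors were examined as a set of 37 genes, out of 55573 genes in the expression table, in ribosome profiling of proliferating mouse primary myoblasts. The members were taken by gene symbol from the autophagy pathway, from the initiating kinase to the proteins that join the autophagosome to the lysosome, and all 37 symbols were found once in the table. There were 4 libraries from day 2 of proliferation, 2 from wild-type (WT) myoblasts and 2 from myoblasts labelled as a knockout (KO) of Eif5a. Myoblasts were isolated from hind-limb muscle of 3-week-old mice, were grown with fetal bovine serum and FGF, and were given cycloheximide to hold ribosomes on the mRNA before lysis. In the KO mice a floxed Eif5a gene is removed by a tamoxifen-dependent Cre recombinase expressed from the Pax7 locus, so deletion reaches cells with a Pax7 history and not the other cells of digested muscle. The sources used here describe the WT controls both as Cre carriers without the floxed gene and as floxed mice without Cre, and they differ on whether cycloheximide was given for 1 min or 10 min. They do not say whether the 2 libraries of a group came from separate mice, so that p-values measure the spread between these libraries, which may be technical.

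Autophagy encloses cytoplasm in a double membrane and delivers it to the lysosome for breakdown. The ULK kinase complex starts the process, a class III phosphatidylinositol (PI) 3-kinase marks the growing membrane with PI 3-phosphate, and a ubiquitin-like conjugation system attaches the ATG8 proteins (LC3 and GABARAP) to it. Cargo receptors then link selected material, such as ubiquitinated protein or worn mitochondria, to the membrane-bound ATG8 proteins. In muscle stem cells autophagy is known for keeping quiescent cells clear of damaged organelles and for supplying nutrients as they activate. eIF5A, which carries the spermidine-derived residue hypusine, helps the ribosome form peptide bonds at difficult sequences, of which runs of proline are the best known.

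The libraries held between 642429 and 704006 recovered reads, of which protein-coding genes took 33.9% to 41.5% in WT and 59.2% to 65.4% in the KO-labelled libraries. Mitochondrial rRNA took 39.1% and 30.1% of the WT reads against 15.0% and 18.5%, and microRNA genes took 16.8% in WT library 2 against 2.31% to 4.30% in the other 3 libraries, and the part of these shares in the members' values was not tested. The members took 0.483% and 0.440% of the protein-coding reads in WT libraries 1 and 2, and 0.416% and 0.497% in the KO-labelled libraries 1 and 2. The targeted gene Eif5a was not lower in the KO-labelled libraries, with 34.9 and 65.2 RPKM in WT and 60.3 and 59.4 RPKM there. Myod1, the myogenic transcription factor, stood at 140 and 118 RPKM in WT and at 48.6 and 79.8 RPKM in the KO-labelled libraries, without overlap (limma adjusted p = 0.676). Markers of 4 cell types were read beside the members, and 0 of them passed at an adjusted p-value under 0.05 (limma). Of all tested genes 20.3% were lower and 20.1% higher in the KO-labelled libraries without overlap between groups. Of 9 tested myoblast markers 6 were lower without overlap and 1 was higher, with a summed level over all 10 markers of 346 and 211 RPKM in WT against 118 and 133 RPKM. Of 6 endothelial markers 5 were higher and 0 lower without overlap, with sums of 117 and 107 RPKM against 150 and 124 RPKM. Fibroblast markers summed to 499 and 318 RPKM against 867 and 394 RPKM over 10 genes, of which 3 were higher and 1 was lower without overlap. The 6 immune markers summed to 28.4 and 38.5 RPKM against 25.0 and 25.9 RPKM, with 2 higher and 2 lower without overlap and Itgam at 0 in all 4 libraries. The part of these marker levels in the members' values was not tested, and fewer cells of a type and less ribosome-bound RNA per cell cannot be told apart in such bulk libraries.

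No autophagy gene passed the test between the groups. Of the 36 members with a mean of at least 1 RPKM, 0 were lower and 0 were higher at an adjusted p-value under 0.05 (limma), against 0.0968% lower and 0.0088% higher among the 11363 genes tested. At an unadjusted p-value under 0.05, 0 members were lower, where 4.46% of all tested genes were, and 1 member, Bnip3, was higher, where 2.86% were. The members split evenly, with 18 log2 fold changes below 0 and 18 above 0 and a median of -0.01, beside a median of 0.00026 over all tested genes (both are differences between the KO-labelled libraries and WT on the log2(RPKM + 1) scale). Without WT library 1 the split was 11 below and 25 above 0, and without WT library 2 it was 22 below and 14 above. The WT and KO values of a gene did not overlap for 4 members that were lower in the KO-labelled libraries, which is 11.1% of the members tested against 20.3% of all tested genes. They did not overlap for 5 members that were higher, which is 13.9% against 20.1%. With limma-voom on the recovered reads 0 of 34 members passed at an adjusted p-value under 0.05, and 1, Ulk1, was lower at an unadjusted p-value of 0.0380. In that fit 610 of all genes were lower and 316 higher at an unadjusted p-value under 0.05. The deposited scaling holds the typical gene level and not the library total. With libraries scaled to the same total, the median log2 fold change shifted to 0.47 over all tested genes and to 0.50 over the members, with 2 members below and 34 above 0, so that the directions given here are relative to the typical gene. The 4 lower genes were Ulk1, Uvrag, Atg2a and Wipi1, and the 5 higher genes were Atg101, Pik3c3, Gabarap, Bnip3 and Tax1bp1. With libraries scaled to the same total, Uvrag, Atg2a and Wipi1 stood above 0, at 0.01, 0.05 and 0.16, while Ulk1 stayed below 0 and the 5 higher genes above it. The precision was limited, since the 95% interval of the difference reached a median of 1.10 log2 units to either side and stayed within a 2-fold change for 0 of the 36 members.

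**Figure D1:**
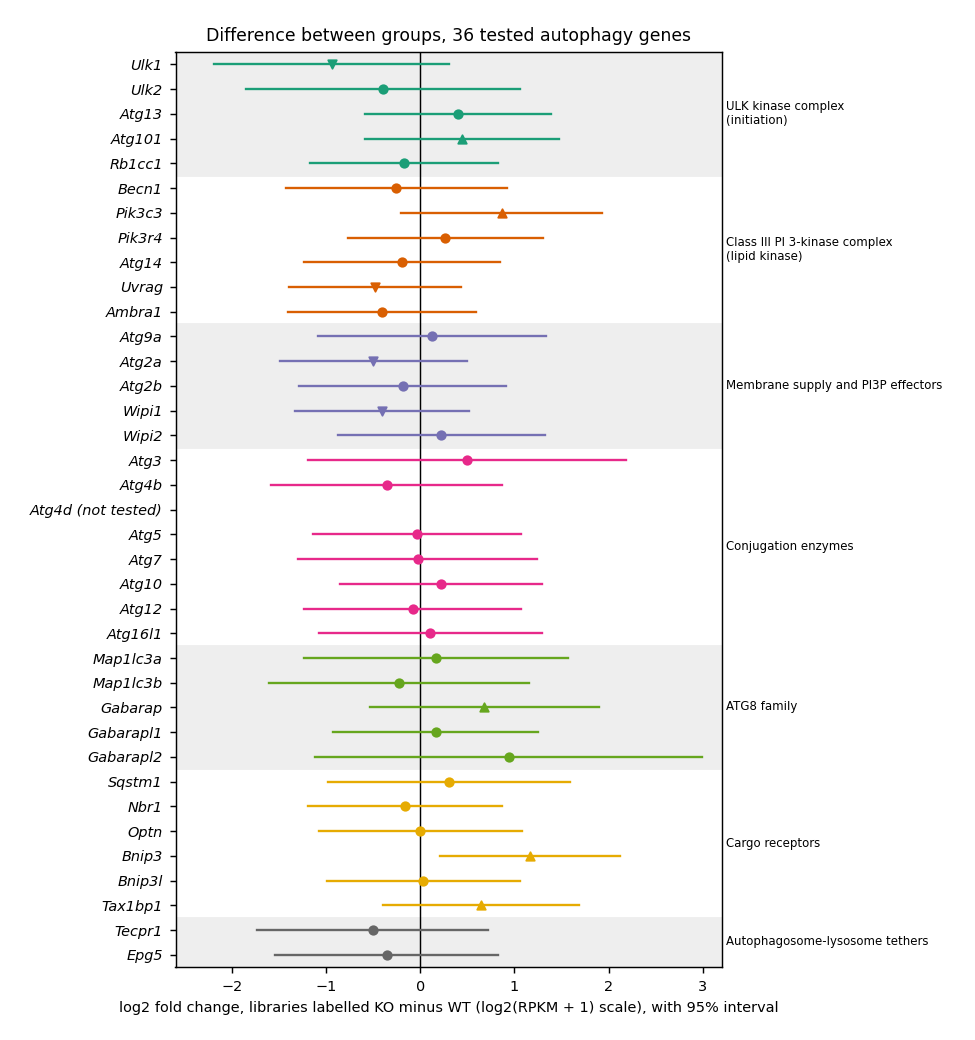
Log2 fold change of each tested autophagy gene between the KO-labelled libraries and WT (x axis, log2(RPKM + 1) scale), with bars for the 95% interval from limma and genes ordered by pathway step. Upward triangles mark genes whose 2 KO values both exceed the 2 WT values, downward triangles the opposite and circles overlapping groups; of the 36 intervals, 35 hold 0 and that of Bnip3 does not.

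The levels of the members spanned more than the differences between groups. Sqstm1, the gene of the receptor p62, was read most, with 156 and 231 RPKM in WT and 196 and 280 RPKM in the KO-labelled libraries, and it alone gave 30.1% of the members' reads in WT. Gabarap followed with a WT mean of 63.3 RPKM ± 19.6 (SD, n = 2), then Atg101 with 22.6 ± 5.58, Map1lc3a with 19.3 ± 13.4 and Gabarapl1 with 18.1 ± 4.71. At the other end Atg4d stood at 0.749 RPKM ± 0.233 (SD, n = 2), below the minimum for testing. In the order of the 37 WT means, the WT values of Sqstm1 lay above those of Gabarap and those of Gabarap above those of Atg101. From Atg101 down, every gene overlapped with the next in the order in its WT values. Summed over the libraries, a member had a median of 100 reads, the fewest being 15 and the most 2038.

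**Figure D2:**
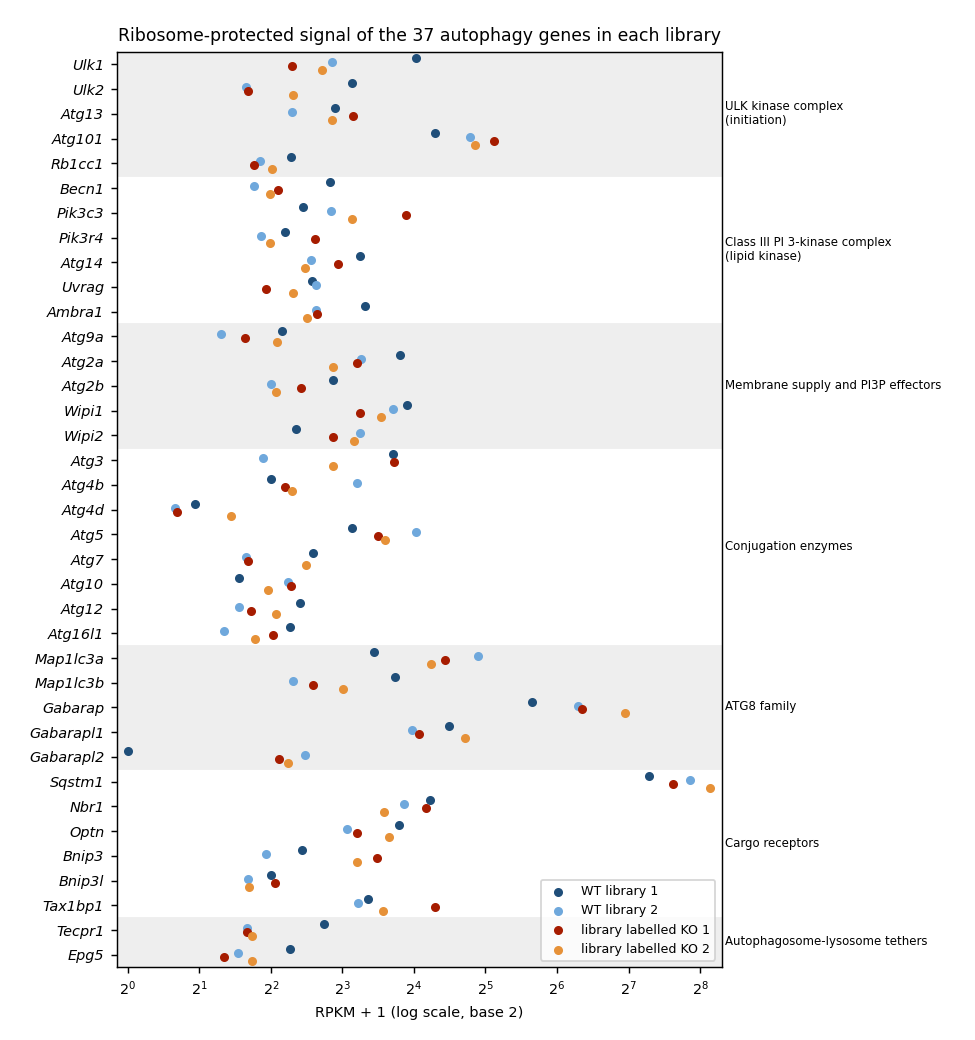
Ribosome-protected signal of the 37 autophagy genes in each library (x axis, RPKM + 1 on a log scale with base 2), with 1 point per library and genes ordered by pathway step. Sqstm1 and Gabarap stand apart at the right, Gabarapl2 is listed at 0 in WT library 1, and for most genes the points of the 2 groups interleave.

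RPKM divides reads by the annotated exon length, untranslated regions included, whereas footprints fall mostly on coding sequence. The coding sequence made up between 5.03% and 76.9% of the exon length of the members, with a median of 31.0%. When reads were divided by the length of the principal coding sequence, with the library scaling of RPKM kept (called coding RPKM here), the WT level of Sqstm1 was 488 ± 134 coding RPKM (SD, n = 2) and that of Gabarap 330 ± 102, still ranks 1 and 2 of 37. Map1lc3b, coding for LC3B, moved from rank 13 to rank 3, at 162 ± 118 coding RPKM (SD, n = 2). Atg12, coding for a ubiquitin-like protein that is joined to ATG5, moved from rank 30 to rank 6, at 56.4 ± 30.4 coding RPKM (SD, n = 2). Genes with long coding sequences moved the other way, such as Atg2a from rank 10 to rank 24 and Pik3c3 from rank 19 to rank 32. On this scale the ATG8 family held 4 of the 5 highest ranks, by the mean of the WT libraries, while Gabarapl2 stood at rank 22. All reads given to a gene were counted, and where on it they fell was not measured. Any reads outside the coding sequence would raise the coding RPKM, most where that sequence is a small part of the exons. The WT libraries disagreed on this order, as Map1lc3a stood at rank 13 in WT library 1, at 31.7 coding RPKM, and at rank 3 in WT library 2, at 92.8 coding RPKM. In the order of the coding RPKM means Gabarap lay above the next gene, Map1lc3b, in its WT values, and each of the other genes overlapped with its next neighbour.

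**Figure D3:**
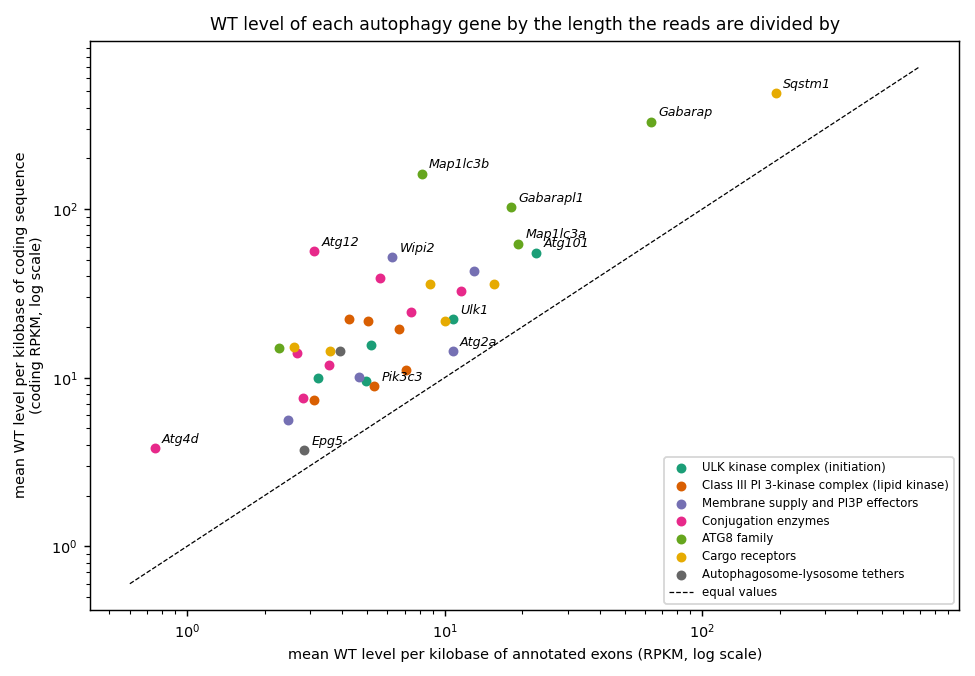
Mean level of each autophagy gene in the 2 WT libraries per kilobase of annotated exons (x axis, RPKM, log scale) and per kilobase of principal coding sequence (y axis, coding RPKM, log scale), coloured by pathway step, with a dashed line at equal values. Sqstm1 and Gabarap lead on both scales, and Map1lc3b and Atg12, with short coding sequences in long transcripts, lie farthest above the line.

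The ULK kinase complex starts autophagosome formation in response to nutrient signals. Its kinase gene Ulk1 (ENSMUSG00000029512, mm10 chr5:110784488-110810097, minus strand) had the lowest log2 fold change among the members. Ulk1 stood at 15.3 and 6.22 RPKM in WT libraries 1 and 2, from 60 and 19 reads, and at 3.91 and 5.53 RPKM in the KO-labelled libraries, from 23 and 29 reads. Both KO values lay below both WT values, and WT library 1 was far above the other 3 libraries. The log2 fold change was -0.94 (SE 0.51, limma adjusted p = 0.690). Without WT library 1 it was -0.35, and without WT library 2 it was -1.53. Ulk1 was not the lowest member without WT library 1, where Atg4b stood at -0.96 and Map1lc3a at -0.56. The paralog Ulk2 had 7.77 and 2.13 RPKM in WT and 2.21 and 3.94 RPKM in the KO-labelled libraries, again with WT library 1 alone at the top. The regulatory subunits showed no common direction. Atg101, which stabilises ATG13, had 18.7 and 26.6 RPKM in WT and 33.8 and 27.9 RPKM in the KO-labelled libraries, without overlap (log2 fold change 0.45, SE 0.42, and 0.20 without WT library 1). Atg13, the adaptor that brings the kinase to the complex, had 6.46 and 3.89 RPKM in WT and 7.83 and 6.24 RPKM in the KO-labelled libraries, which overlap. Rb1cc1, which codes for the scaffold FIP200, ranged from 2.40 to 3.84 RPKM over the 4 libraries, with WT and KO overlapping.

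In the class III PI 3-kinase complex, which makes the lipid PI 3-phosphate, the log2 fold changes lay on both sides of 0 and none passed the test. Pik3c3, the catalytic subunit VPS34, stood at 4.46 and 6.18 RPKM in WT, from 12 and 13 reads, and at 13.8 and 7.76 RPKM in the KO-labelled libraries, from 56 and 28 reads. The groups did not overlap, with KO library 1 well above the rest (log2 fold change 0.86, SE 0.43, limma adjusted p = 0.676), and without that library the log2 fold change was 0.49. Uvrag, a regulatory subunit of the complex active at later membrane steps, had 4.96 and 5.17 RPKM in WT and 2.81 and 3.97 RPKM in the KO-labelled libraries, so both WT values were above both KO values (log2 fold change -0.48, SE 0.37, and -0.29 without KO library 1). The other subunits and regulators overlapped between groups. Their log2 fold changes were -0.25 for Becn1, the scaffold Beclin 1, -0.19 for Atg14, which directs the complex to early autophagosomes, 0.27 for the pseudokinase subunit Pik3r4 and -0.40 for Ambra1, which regulates Beclin 1. With a single library left out these values ranged from -0.78 to 0.28 for Becn1, from -0.53 to 0.14 for Atg14, from -0.05 to 0.58 for Pik3r4 and from -0.75 to -0.06 for Ambra1, so that for 3 of the 4 the sign turned.

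Of the 5 genes that supply membrane or read PI 3-phosphate, none passed the test. Without overlap between groups 2 were lower and 0 higher, beside 20.3% and 20.1% of all tested genes. Atg2a, a lipid transfer protein that feeds the growing membrane, had 12.9 and 8.55 RPKM in WT and 8.17 and 6.28 RPKM in the KO-labelled libraries (log2 fold change -0.50, SE 0.40, and -0.23 without WT library 1). Wipi1, which binds PI 3-phosphate, had 13.9 and 12.03 RPKM in WT and 8.50 and 10.7 RPKM in the KO-labelled libraries (log2 fold change -0.41, SE 0.38, and -0.26 without KO library 1). In both genes the gap between the lowest WT and the highest KO value was narrow. Their relatives Atg2b and Wipi2 overlapped between groups, with log2 fold changes of -0.18 and 0.22 that ranged from -0.62 to 0.25 and from -0.23 to 0.67 with a single library left out. Atg9a, the lipid scramblase carried on seed vesicles, stood between 1.47 and 3.46 RPKM, from 42 reads in all, and also overlapped.

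The conjugation enzymes attach ATG12 to ATG5 and the ATG8 proteins to lipid. Of the 7 tested members of this step 0 were lower and 0 higher without overlap, beside 20.3% and 20.1% of all tested genes, and their log2 fold changes ran from -0.36 for Atg4b, a protease that prepares ATG8 proteins, to 0.50 for Atg3, the enzyme that transfers ATG8 to lipid. Both ends rested on the WT libraries, as Atg4b stood at -0.96 without WT library 1 and 0.24 without WT library 2, and Atg3 at 1.41 and -0.42. Atg3 illustrates the spread, with 12.1 and 2.69 RPKM in WT, from 23 and 4 reads, and 12.2 and 6.28 RPKM in the KO-labelled libraries, from 35 and 16 reads. The 2 WT libraries thus enclosed KO library 2 and nearly reached KO library 1 (SE of the log2 fold change 0.69). Atg5, the acceptor of ATG12, had 7.76 and 15.3 RPKM in WT and 10.3 and 11.1 RPKM in the KO-labelled libraries, with both KO values between the WT values. The same held for Atg7, the E1-like activating enzyme, with 5.00 and 2.13 RPKM in WT and 2.22 and 4.62 RPKM in the KO-labelled libraries. Atg12 and Atg16l1, which complete the ATG12-ATG5-ATG16L1 ligase, had log2 fold changes of -0.08 and 0.10. Without WT library 1 these were 0.35 and 0.56, and without WT library 2 they were -0.51 and -0.35. Atg10, the E2-like enzyme for ATG12, had a log2 fold change of 0.22 from 15 reads in all (-0.12 without WT library 1). Atg4d, a further ATG8 protease, had 4 and 2 reads in WT and 4 and 10 reads in the KO-labelled libraries and was not tested.

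The ATG8 proteins are made with a short tail that ATG4 cuts off behind a glycine, and this glycine is then joined to lipid. The last glycine codon is shown in capitals in the end of 4 of the 5 coding sequences, in the strand of the gene, since it marks what the family shares and how its tails differ. The stretches were read from mm10 and lie in the last of 4 exons of each gene, at chr2:155277614-155277637 for Map1lc3a, chr11:69994501-69994524 for Gabarap, chr6:129541144-129541167 for Gabarapl1 and chr8:111952382-111952405 for Gabarapl2, all on the plus strand.
Map1lc3a: tcccaagaaaccttcGGCttctga
Gabarap: gatgaaagcgtctatGGTctgtga
Gabarapl1: gatgaaagtgtctatGGAaaatga
Gabarapl2: ggagagaacacttttGGCttctga
The family falls in 2 pairs and Gabarapl2, with 86.3% identical residues between GABARAP and GABARAPL1 and 81.8% between LC3A and LC3B, against 57.3% between GABARAP and GABARAPL2.

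Of these 5 genes 1, Gabarap, was higher without overlap between groups and 0 were lower, beside 20.1% and 20.3% of all tested genes. Gabarap stood at 49.5 and 77.1 RPKM in WT, from 55 and 67 reads, and at 80.7 and 123 RPKM in the KO-labelled libraries, from 135 and 183 reads. Both KO values were above both WT values, though KO library 1 exceeded WT library 2 by little (log2 fold change 0.68, SE 0.50, limma adjusted p = 0.707), and without WT library 1 the log2 fold change was 0.365. Its close relative Gabarapl1 had 21.4 and 14.8 RPKM in WT and 15.9 and 25.2 RPKM in the KO-labelled libraries, which overlap. Map1lc3a had 9.83 and 28.8 RPKM in WT, enclosing 20.5 and 17.8 RPKM in the KO-labelled libraries. Map1lc3b had 12.4 and 3.95 RPKM in WT, enclosing 4.99 and 7.08 RPKM. The WT libraries thus differed in opposite directions for the 2 LC3 genes. Gabarapl2 had 0 reads in WT library 1, which allows up to 2.14 RPKM at 3 reads, and 4.56, 3.32 and 3.73 RPKM in the other 3 libraries, from 5, 7 and 7 reads. Its log2 fold change of 0.94 (SE 0.84) rested on that library and was -0.30 without it. Map1lc3b and Gabarapl2 are uncertain in a further way, since 100% and 98.8% of the words of 28 bases in their coding sequences also occur in other annotated genes, nearly all of them processed pseudogenes. These copies held 2 reads in all for Map1lc3b and 0 for Gabarapl2, and how reads with several matches were treated is not given in the sources used here.

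Among the cargo receptors Bnip3 had the highest log2 fold change of the 36 tested members, on the log2(RPKM + 1) scale with all 4 libraries. With 0.1 added to RPKM in place of 1, Gabarapl2 stood higher, at 2.405 against 1.355 for Bnip3. Without WT library 2 Gabarapl2 stood at 2.18 and Bnip3 at 0.91. Bnip3 (ENSMUSG00000078566, mm10 chr7:138890836-138909519, minus strand) codes for a hypoxia-induced mitochondrial receptor. It stood at 4.39 and 2.81 RPKM in WT, from 6 and 3 reads, and at 10.2 and 8.20 RPKM in the KO-labelled libraries, from 21 and 15 reads. Both KO values were well above both WT values, at few reads. The log2 fold change was 1.16 (SE 0.39), with an unadjusted limma p of 0.0248 and an adjusted p of 0.665 over all genes tested. On the recovered reads, with limma-voom, the unadjusted p was 0.150 at a log2 fold change of 1.21. When a single library was left out, the unadjusted limma p lay between 0.0412 without WT library 1 and 0.190 without KO library 1, and it was 0.0935 without WT library 2 and 0.116 without KO library 2. Of the 28-base words in its coding sequence 92.4% recur in other annotated genes. Of those, 5 genes, most of them pseudogenes, had 0 reads, and a 93147-base lncRNA that spans a copy, AC160336.1, held 424 and 194 WT reads beside 498 and 323 KO-labelled ones. Whether reads were exchanged between Bnip3 and its copies was not tested. Its paralog Bnip3l, coding for the mitochondrial receptor NIX, with 84.9% of its words shared with a pseudogene that had 0 reads, had 3.01 and 2.20 RPKM in WT and 3.14 and 2.25 RPKM in the KO-labelled libraries, which overlap. Beyond Map1lc3b, Gabarapl2, Bnip3 and Bnip3l, the shared words came to 31.9% in Rb1cc1, 29.6% in Atg9a, 19.9% in Gabarapl1, 10.8% in Atg4b and 10.2% in Becn1, and the genes that share these words had 1 read in all, on the copy of Rb1cc1. Of the 13 members with any shared word, Ulk1, Uvrag, Gabarap and Optn make up the rest, each with at most 3.29% of its words. Mapk11, which shares 1 word with Ulk1, had 2 and 1 reads in WT and 8 and 15 among the KO-labelled reads, and Gm45187, which shares 68 words with Uvrag, had 0, 1, 3 and 0 reads over the libraries.

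The receptors of ubiquitinated cargo had no common pattern. Tax1bp1 had 9.30 and 8.29 RPKM in WT, from 56 and 39 reads, and 18.7 and 10.9 RPKM in the KO-labelled libraries, from 169 and 88 reads, without overlap (log2 fold change 0.65, SE 0.42, limma adjusted p = 0.697). Of its 2 KO values the first set most of the difference, as the log2 fold change without KO library 1 was 0.28. Sqstm1 overlapped between groups, with a log2 fold change of 0.31 (SE 0.52) and a 95% interval from -0.98 to 1.59, although it had 2038 reads in all. With a single library left out its log2 fold change ranged from 0.02 without WT library 1 to 0.59 without WT library 2. Nbr1, a partner of p62, had 17.6 and 13.6 RPKM in WT and 17.0 and 11.0 RPKM in the KO-labelled libraries, and Optn, the receptor optineurin, 12.8 and 7.35 RPKM against 8.23 and 11.6 RPKM. Both overlapped, with log2 fold changes of -0.17 and 0.0021 that ranged from -0.46 to 0.13 and from -0.36 to 0.37 with a single library left out.

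The tethers that bring autophagosomes to lysosomes, Tecpr1 and Epg5, had log2 fold changes of -0.51 (SE 0.50) and -0.36 (SE 0.48). Tecpr1 stood at 5.71 and 2.16 RPKM in WT and at 2.16 and 2.33 RPKM in the KO-labelled libraries, and Epg5 at 3.80 and 1.90 RPKM against 1.54 and 2.34 RPKM. In both genes WT library 1 was above the other 3 libraries, which lay close together, and without that library the log2 fold changes were 0.04 and 0.0049.

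That excess of WT library 1 over WT library 2 ran through much of the set. Of the 36 tested members 25 (69.4%) were higher in WT library 1 than in WT library 2, against 48.8% of all tested genes and 59.5% of the 42 tested further autophagy genes, while 17 (47.2%) were higher in KO library 1 than in KO library 2, against 46.5%. The share higher in WT library 1 varied between groups of genes, from 40.0% in the ATG8 family to 83.3% in the cargo receptors and 100% of the 2 tethers among the members, and from 25.0% in the other core machinery to 76.9% in the other selective receptors among the further genes. The median member was 0.50 log2 units higher in WT library 1 than in WT library 2, and the median size of the difference between the WT libraries, whatever its sign, was 0.70. Between the KO-labelled libraries the median size was 0.35. Over all tested genes these medians were 0.60 and 0.42. The difference between group means had a median size of 0.29 over the members and 0.49 over all tested genes, and a mean of 2 libraries varies less than a single library. Leaving out WT library 1 moved the median log2 fold change of the members from -0.01 to 0.20, and leaving out WT library 2 moved it to -0.35. With each library left out in turn, 7 members stayed above 0, 5 stayed below 0 and 24 of 36 changed sign at least once. WT library 1 also held most of the signal of Myog, the myogenic factor of differentiation, at 91.0 RPKM against 4.26 RPKM in WT library 2 and 0.738 and 1.66 RPKM in the KO-labelled libraries, and the part of this in the members' values was not tested. Summed over the 37 members, in contrast, the level was lower in WT library 1, at 474 RPKM against 536 RPKM in WT library 2, since Sqstm1 and Gabarap were lower there.

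**Figure D4:**
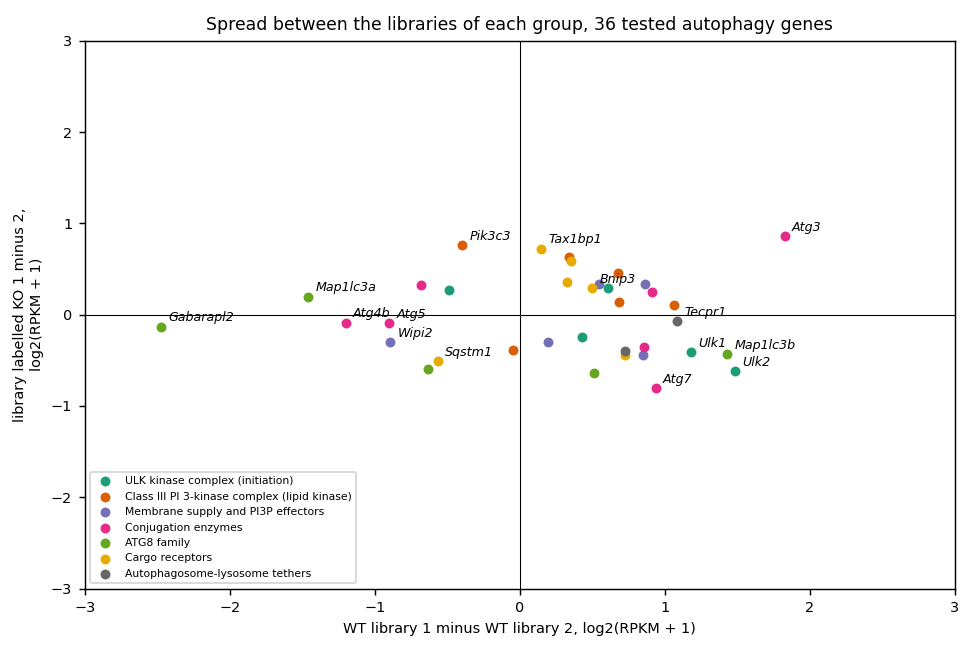
Difference between the 2 WT libraries (x axis) and between the 2 libraries labelled KO (y axis) for each of the 36 tested autophagy genes, on the log2(RPKM + 1) scale and coloured by pathway step. The points spread farther along the x axis than the y axis, and 25 of 36 lie to the right of 0.

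Since eIF5A is known for its role at runs of proline, the proteins of the members were searched for them. The letters PPP were searched in each protein translated from its principal coding sequence, with longer runs counted once. There were 10 members (27.0%) with 3 or more prolines in a row, beside 19.7% of 21395 mouse proteins treated alike, and 4 members with 4 or more, beside 6.30% of all proteins. The tripeptide DDG, an aspartate-rich motif, occurred in 3 members (8.11%), beside 7.56%. The 4 longest runs, and that of Ulk1 as the member with the lowest log2 fold change, are shown with the proline codons in capitals and 15 coding bases to either side, in the strand of the gene. They lie in mm10 at chr2:91772465-91772512 for Ambra1 (exon 7 of 18, plus strand), chr9:105669929-105672657 for Pik3r4 (across the junction of exons 12 and 13 of 20, plus strand, the span including the intron), chr16:45183760-45183801 for Atg3 (exon 10 of 12, plus strand), chr14:67008740-67008781 for Bnip3l (exon 1 of 6, minus strand) and chr5:110792402-110792440 for Ulk1 (exon 14 of 28, minus strand).
Ambra1: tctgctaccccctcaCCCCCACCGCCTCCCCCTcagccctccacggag
Pik3r4: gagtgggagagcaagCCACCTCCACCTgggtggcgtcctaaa
Atg3: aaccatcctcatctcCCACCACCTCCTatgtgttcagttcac
Bnip3l: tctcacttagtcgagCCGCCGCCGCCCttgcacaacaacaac
Ulk1: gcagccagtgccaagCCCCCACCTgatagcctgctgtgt

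The runs shown above encode 6 prolines in Ambra1, 4 each in Pik3r4, Atg3 and Bnip3l, and 3 in Ulk1. These 5 genes had log2 fold changes on both sides of 0, at -0.40, 0.27, 0.50, 0.03 and -0.94. Over the 10 members with 3 or more prolines in a row, 5 log2 fold changes were below 0 and the median was -0.07, and over the 26 tested members without such a run 13 were below 0 and the median was -0.01. Sqstm1, the member with the most reads, has its run of 3 prolines just before the stop codon, at residues 439 to 441 of 442. RPKM over a whole gene does not show where on the mRNA the ribosomes stood, so pausing at these sites was not measured here.

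The base composition of the coding sequence was set beside the difference between groups as well. The coding sequences of the tested members held between 39.6% and 59.8% G and C. Of the 18 members at or below the median of 51.8%, 7 had a log2 fold change below 0, with a median of 0.13, and of the 18 members above it 11 did, with a median of -0.14. Spearman's rho between log2 fold change and coding G and C was -0.48 across the 36 members and -0.36 across 9836 tested protein-coding genes, both across genes measured in the same 4 libraries. After the trend on G and C was taken out of each library, Ulk1 stood at -0.65 in place of -0.94, Bnip3 at 0.96 in place of 1.16, Tax1bp1 at 0.30 in place of 0.65 and Atg2a at -0.18 in place of -0.50, while Atg101 stood at 0.66 in place of 0.45 (log2 fold changes). Shifts away from 0 also occurred in Rb1cc1, at -0.60 in place of -0.17, in Atg5, at -0.33 in place of -0.03, and in Sqstm1, at 0.54 in place of 0.31. The part of base composition in the members' differences beyond this was not tested.

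**Figure D5:**
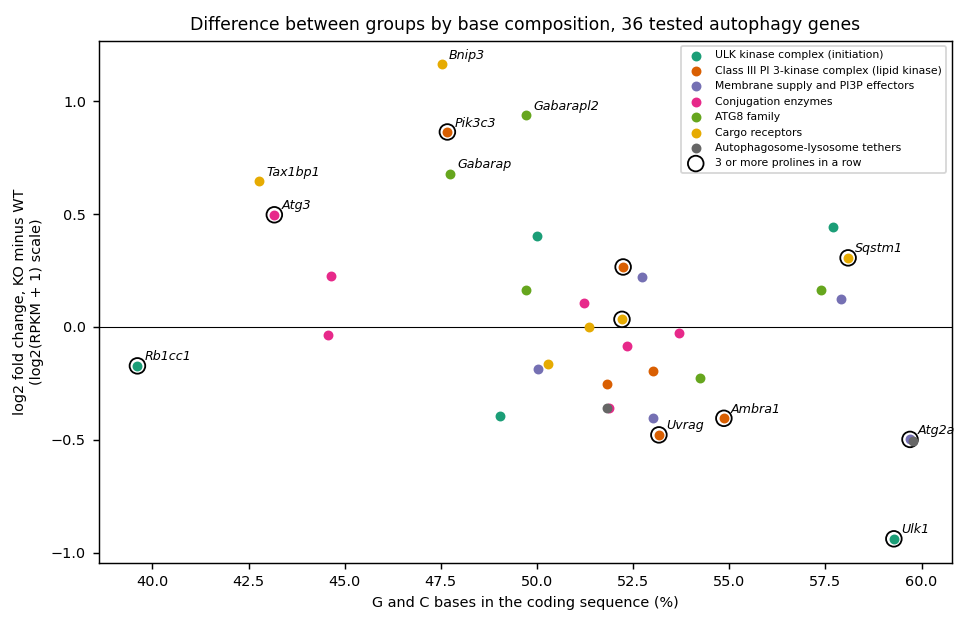
Log2 fold change between the KO-labelled libraries and WT (y axis, log2(RPKM + 1) scale) against the share of G and C bases in the coding sequence (x axis, %) for the 36 tested autophagy genes, coloured by pathway step, with circles around the 10 genes that encode 3 or more prolines in a row. The circled genes lie on both sides of 0, and Ulk1, with the lowest fold change, is among those richest in G and C.

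Around this machinery, 47 further autophagy genes were read for comparison, among them upstream kinases, other core proteins, fusion factors and other selective receptors. Of the 42 tested, 0 passed at an adjusted p-value under 0.05 in either direction (limma). At an unadjusted p-value under 0.05, 0 were lower and 1 was higher, beside 4.46% and 2.86% of all tested genes. Their median log2 fold change was -0.03. The 1 gene was Vamp8, a SNARE that drives fusion of autophagosome and lysosome, with 4.31 and 2.76 RPKM in WT and 16.2 and 11.3 RPKM in the KO-labelled libraries (log2 fold change 1.70, limma adjusted p = 0.583). Next among those higher were Atg4c, an ATG8 protease, at 0 and 0.633 RPKM in WT against 1.65 and 3.33 RPKM, and Snap29, the partner of VAMP8 in fusion, at 6.74 and 3.08 RPKM against 8.96 and 9.34 RPKM. Lower in the KO-labelled libraries were Fkbp8, a mitophagy receptor, at 26.4 and 13.1 RPKM in WT against 6.82 and 10.1 RPKM, and Pink1, the kinase that marks damaged mitochondria, at 16.1 and 7.15 RPKM against 4.95 and 6.48 RPKM. The same order held for Rragd, a GTPase that relays amino acid signals to mTORC1, at 2.89 and 2.46 RPKM against 0.639 and 1.68 RPKM. None of these 6 genes, chosen for the smallest p in each direction, passed the test over all genes. Over the 4 libraries Vamp8 had 64 reads, Atg4c 15, Snap29 73, Fkbp8 165, Pink1 61 and Rragd 25. The WT values of Atg4c came from 0 and 1 reads, which does not show that it was absent. Over the 42 tested further genes 8 were lower and 9 higher without overlap, beside 20.3% and 20.1% of all tested genes.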

How the data were processed

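The 4 libraries are ribosome profiling, although their titles name polysome sequencing: per the labels, lysates were digested with RNase I and the protected fragments purified. The authors deposited RPKM values per gene. The submitters' processing notes name TopHat, TopHat2, HTSeq and mm10, without versions, and strand handling is not given in the sources used here. In each library 100% of the products of RPKM and gene length were integer multiples of the smallest step (tolerance 0.01 reads), which gave back whole reads. The library size used by the authors was the median-of-ratios size factor times the geometric mean of the totals, between 471136 and 906990. Floors of 3 reads cover counting error only.

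Differences were tested with limma 3.58.1 (R 4.3.3, eBayes with trend) on log2(RPKM + 1). Genes averaging 1 RPKM or more over the 4 libraries were tested, with Benjamini-Hochberg adjustment over all tested genes. The script was tested on simulated data. With 2 libraries against 2, an exact permutation test cannot give a p under 0.333. The labels do not say whether same-numbered libraries shared an animal or a day. Their deviations from the group means had a correlation of 0.0575, which cannot exclude it. Replicates differed beyond sampling noise (chi-square per degree of freedom of 21.9 in WT and 9.06 in KO). These values cover genes of every type, mitochondrial rRNA and microRNA genes included, and not the members alone. Coding sequences came from GENCODE M21 (GRCm38, the same assembly as mm10), where 99.7% of identifiers were found, using APPRIS principal transcripts, a choice made after seeing the data. All 37 members, Eif5a, Myod1 and, of the further autophagy genes, the 3 with the smallest p in each direction were named. The members and lists were chosen with earlier results of these data known. Alternatives were other pseudocounts, filters, scalings and tests, removal of the G and C trend, a replicate block and leaving out each library.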

Additional observations from a re-analysis of the deposited data

How the results depend on the processing

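No member passed at an adjusted p-value under 0.05 in limma or under any of 16 alternatives, where the lowest adjusted p of a member lay between 0.271 and 0.944. At an unadjusted p-value under 0.05, scaling to the same total of reads gave 5 members higher (Gabarap, Atg101, Tax1bp1, Pik3c3 and Bnip3) in place of 1, where 1684 of all tested genes were higher and 170 lower in place of 325 and 507, moved the members' median to 0.50 and that of the further autophagy genes to 0.45, and gave 6 of the latter higher. Limma-voom gave 1 member lower and 0 higher, and 1 further gene lower, where 610 of all genes were lower and 316 higher. With protein-coding genes only, 1 further gene was lower and 2 were higher, where 417 of all genes were lower and 418 higher. Without a trend 2 further genes were higher, where 497 of all genes were lower and 285 higher. When a single library was left out, between 0 and 1 members were lower and between 0 and 1 higher, the members' median ranged from -0.35 to 0.20, and the further genes had 0 to 4 lower and 0 to 3 higher. Over all tested genes the 11 lower and 1 higher at an adjusted p-value under 0.05 remained in number under a common protein-coding total and with quantile normalization, came to 43 lower and 0 higher with limma-voom, and to 0 in the other 13 alternatives, while the 507 lower and 325 higher at an unadjusted p-value ranged from 170 to 791 and from 178 to 1684. What the replicate numbers mark is not given in the labels. With the replicate block 0 members passed, and 509 of all genes were lower and 318 higher at an unadjusted p-value.

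All changes of sign were counted, and those where the log2 fold change exceeded its SE before or after the change are given apart, as changes by the rule. Scaled to the same total, 16 members changed sign, leaving 2 below and 34 above 0. Of these changes 5 were by the rule, in Wipi1 (0.16), Atg5 (0.53), Atg2a (0.049), Ambra1 (0.11) and Uvrag (0.014). Leaving out WT library 1 changed 15 signs, 5 of them by the rule, and leaving out WT library 2 changed 8, 3 of them by the rule. Leaving out a KO-labelled library changed 5 or 6 signs, 0 of them by the rule. By the rule these leave-one-out changes touched Map1lc3a (range -0.56 to 0.89), Map1lc3b (-0.94 to 0.49), Tecpr1 (-1.05 to 0.036), Atg12 (-0.51 to 0.35), Gabarapl2 (-0.30 to 2.18), Atg5 (-0.48 to 0.42), Optn (-0.36 to 0.37) and Atg16l1 (-0.35 to 0.56). Removing the G and C trend changed 5 signs (23 members below and 13 above 0), and limma-voom, quantile normalization and the protein-coding total 2 each. Of these changes 0 were by the rule, and the other 7 alternatives changed 0 signs. The cause of these changes was not tested. The order of WT levels moved with the length used, as given for the coding scale, and the longest in place of the principal coding sequence left Map1lc3b at rank 3. Depth was low in part of the set, as 2 members had under 20 reads over the 4 libraries.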
